A study of Xenopus tropicalis with 24 samples.

Results

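The genes described here are those named for proteins of the cytosolic ribosome in *Xenopus tropicalis*. They were taken by symbol, as every gene named rpl or rps with a number and, where present, a closing a, x, y, l or p, together with rplp0 to rplp2. The rule found 79 of the 26531 genes in the table, 49 for the large and 30 for the small subunit, and all 79 passed the filter on low counts. The set holds 73 ordinary genes, 4 paralogs that carry a further l in the name (*rpl3l*, *rpl7l1*, *rpl22l1* and *rps27l*) and 2 names with a p. Of the last, *rpl34p* is listed as a pseudogene by RefSeq and *rps28p9* has rps28 as a synonym. RNA was sequenced from amputated tadpole tails, the regenerate with a short piece of the uncut tail, at 0, 6 and 24 h post amputation (hpa). The tadpoles were wild type (WT) or lacked both thyroid hormone receptors, TRα and TRβ (TRDKO), and stood at premetamorphic stage 56 or at stage 61, the climax of metamorphosis, which gave WT56, TRDKO56, TRDKO61 and WT61. TRDKO tadpoles came from parents without TRα that carried a single intact TRβ allele. Each of the 12 conditions had 2 libraries and each library held RNA of several tadpoles, all with a cut tail, those of 0 hpa included.

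A ribosome consists of a large and a small subunit, each built from ribosomal RNA and many proteins, and reads mRNA to make protein. Nearly all of these proteins are needed in equal numbers and their mRNAs are among the most abundant of a growing cell. In vertebrates these mRNAs begin with a pyrimidine-rich stretch through which mTOR signalling controls their translation, so that the amount of mRNA and the amount of protein made need not move together. Some proteins have paralogs used in particular tissues, such as RPL3L, which in mammals takes the place of RPL3 in striated muscle.

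Library totals ran from 3956148 counts, in replicate 2 of WT56 at 0 hpa, to 20731438 counts, and between 17428 and 19611 genes had a count. Totals are also written in M, so that this smallest one is 3.96 M. The smallest library stands apart in depth, and the comparisons with WT56 at 0 hpa are also given without it. The study's methods speak of biological replicates prepared for each RNA sample, without naming separate animals, so p-values measure only the spread between these libraries, which may be technical. The label of genotype could not be checked by the level of the receptor genes, since *thra* (5.91 to 10.5 CPM) and *thrb* (13.8 to 111.7 CPM) were also counted in TRDKO libraries. In tissue, the markers listed for skeletal muscle made up 0.73 to 4.18% of counts and those for epidermis 0.633 to 1.37%, and no gene of either list was at 0 in every library. In bulk RNA, fewer cells of a type and less RNA per cell cannot be told apart.

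Levels are given in CPM, the count of a gene scaled to the size of its library, here with TMM factors. Levels of different genes are compared per kilobase of annotated length. Of the 79 genes, 76 had a mean above 100 CPM. The median level was 1931 CPM per kb, and 68 genes exceeded 1000 CPM per kb. Among the highest were *rplp1* (2969 CPM per kb), a protein of the stalk that recruits elongation factors, and *rps12* (2887 CPM per kb). The lowest were *rpl3l* (14.3 CPM per kb), *rps27l* (83.6 CPM per kb), *rpl22l1* (134 CPM per kb) and *rpl7l1* (161 CPM per kb), all 4 of them paralogs. They were followed by the pseudogene *rpl34p* (193 CPM per kb), and the lowest ordinary gene was *rpl37* (412 CPM per kb). The genes are short, with a median length of 605 bases against 2032 bases over all genes in the table, and 64 of them are under 1000 bases. A pseudogene or paralog may share reads with its near-identical copy, so the value of *rpl34p* is uncertain.

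Over the 24 libraries the genes moved almost as a block. The level of each of the 75 genes other than the paralogs correlated with the median level of the set with r from 0.909, with a median of 0.993, which describes libraries that share condition and depth and carries no test. For the paralogs r was 0.028 (*rpl3l*), 0.38 (*rps27l*), 0.589 (*rpl22l1*) and 0.738 (*rpl7l1*). The ratio of large to small subunit counts was between 1.5 and 1.61 in every library. The set as a whole and the 4 paralogs are therefore described separately.

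The study used *rpl8*, a protein of the large subunit, as the reference gene of its RT-qPCR, so its level is given for each library. CPM and RT-qPCR are different measures, and the CPM of *rpl8* moved with library depth, as described below. Whether the scaling of the RT-qPCR was affected was not tested. It lies on chr2:56726359-56733022, plus strand, of UCB_Xtro_10.0. The primers of that assay are shown 5′ to 3′ because they define the amplicon against which other genes were measured.
forward: ttgccaaggttgctttccg
reverse: gtttcaggattgtgggagataacg
In WT56, *rpl8* was at 2175 and 3016 CPM at 0 hpa, at 2222 and 2230.4 CPM at 6 hpa and at 1622 and 1347 CPM at 24 hpa. In TRDKO56 the libraries gave 2645 and 2000.2 CPM at 0 hpa, 2243 and 2244 CPM at 6 hpa and 1476 and 1447 CPM at 24 hpa. At stage 56 both libraries of 24 hpa thus lay below all 4 libraries of the earlier times in either genotype. The share of all genes that separate in this way is not given. In TRDKO61, *rpl8* was at 1729.8 and 2179 CPM at 0 hpa, at 1785 and 1369.9 CPM at 6 hpa and at 1424 and 1568 CPM at 24 hpa. In WT61 it was at 1979 and 1488 CPM, at 1489 and 1513 CPM, and at 1276 and 1639.6 CPM at the same times. At stage 61 the times overlapped in WT61, and in TRDKO61 the libraries of 6 hpa overlapped with those of both other times. The log2 FC of *rpl8* at 24 versus 0 hpa was -0.81 ± 0.21 (SE, FDR 0.0071, edgeR quasi-likelihood test with Benjamini-Hochberg adjustment) in WT56 and -0.67 ± 0.21 (FDR 0.0221) in TRDKO56. With the log2 library total as a further term of the fit, these were -0.31 (FDR 0.11) and -0.39 (FDR 0.0268). Without replicate 2 of WT56 at 0 hpa the log2 FC of *rpl8* in WT56 was -0.55 ± 0.24 (FDR 0.11).

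The 79 genes took up between 7.51 and 13.8% of all counts of a library. The mean share was highest in stage 56 tails at 0 hpa. It was 11.9% ± 2.16 (SD, n = 2) in WT56 and 12.5% ± 1.70 in TRDKO56 at 0 hpa, 10.2% ± 0.064 and 11.2% ± 0.025 at 6 hpa, and 8.77% ± 0.994 and 8.19% ± 0.024 at 24 hpa. In TRDKO61 it was 11.2% ± 2.16, 9.14% ± 1.81 and 8.80% ± 0.273 at 0, 6 and 24 hpa. In WT61 it was 8.88% ± 1.44, 7.96% ± 0.080 and 8.38% ± 1.23. WT61 thus had the lowest mean of the 4 groups at 0 and 6 hpa. At 0 hpa its libraries (9.90 and 7.86%) lay below those of WT56 and TRDKO56 and overlapped with those of TRDKO61 (9.71 and 12.8%). By single genes, 52 of the 75 other than the paralogs had their highest mean level in WT56 at 0 hpa and 23 in TRDKO56 at 0 hpa. The WT56 mean at 0 hpa includes the smallest library, where the median log2 CPM of the set was 10.97. Replicate 1 was at 10.34, below both WT56 libraries of 6 hpa (10.38 and 10.38). Because the genes moved almost as a block, these counts are not 75 separate results. The lowest mean lay in WT61 at 6 hpa for 26 genes, in TRDKO56 at 24 hpa for 24, in WT61 at 24 hpa for 14, in TRDKO61 at 24 hpa for 8 and in WT56 at 24 hpa for 3.

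**Figure D1:**
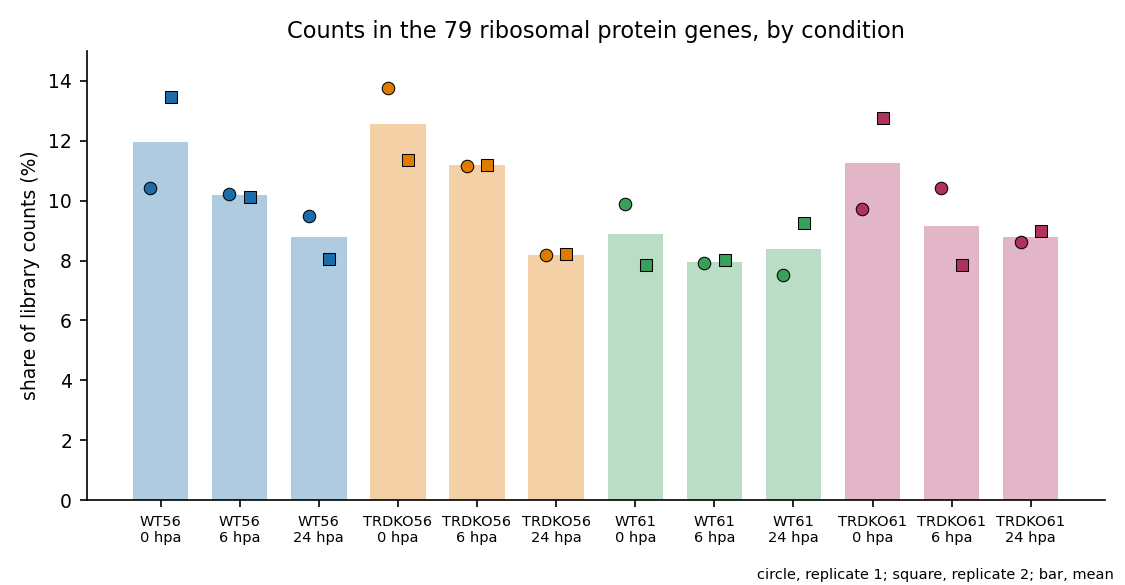
Share of all counts taken by the 79 ribosomal protein genes, in percent, for 12 conditions. Bars are means of 2 libraries and points are the libraries. The 0 hpa libraries of a group lie far apart, as in WT56 (10.4 and 13.5%), while both WT56 libraries of 6 hpa lie close together (10.1 and 10.2%).

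The share also moved with the depth of the library inside a condition, where genotype, stage and time are equal. In 12 of 12 conditions the deeper of the libraries had the lower share, and in 11 of 12 it had the lower median level, with TRDKO56 at 24 hpa (0.02 on the log2 scale) the exception. The difference of the medians, deeper minus shallower, was -0.28 ± 0.22 (SD, n = 12 conditions). Where depths were far apart the gap was wide. WT56 at 0 hpa had 10.7 M and 3.96 M counts, shares of 10.4 and 13.5% and a difference of -0.56, and TRDKO61 at 0 hpa had 18.7 M and 11.1 M counts, shares of 9.71 and 12.8% and a difference of -0.52. Where depths were nearly equal it was narrow, as in TRDKO56 at 6 hpa, with 12.5 M and 12.4 M counts, shares of 11.2 and 11.2% and a difference of -0.01. Between these extremes the gap did not follow depth evenly. It was -0.27 in WT56 at 24 hpa (14.98 M and 12.8 M) and -0.20 in TRDKO61 at 24 hpa (20.7 M and 18.9 M). With depths further apart it was -0.10 in WT61 at 6 hpa (15.7 M and 12.3 M) and 0.02 in TRDKO56 at 24 hpa (17.7 M and 13.8 M). A least squares line through the origin had a slope of -0.54 for each doubling of the total. Pairs with the widest gap in depth weigh most in it, and single pairs lay well off it.

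Depth was therefore added, after seeing the data, as a term in the model of each gene (the log2 of the library total beside the 12 conditions). The choice rested on the spread of these same genes within conditions. Tests of the term in the set, and calls of the set with it, are thus not independent of that choice. This term was below 0 in 79 of 79 genes, with a median of -0.53 per doubling against 0.01 over all 16743 genes tested. It passed an FDR of 0.05, always falling, in 75 of the 79, against 0.645% of all genes tested, or 108 genes. Without replicate 2 of WT56 at 0 hpa the median was -0.66 and 72 genes passed. The genes that did not pass were the paralogs, *rpl7l1* (-0.28), *rpl22l1* (-0.16), *rpl3l* (-0.03) and *rps27l* (-0.01). The steepest were *rpl34p* (-0.82), *rpl37* (-0.75) and *rpl38* (-0.70). For *rps6*, the ribosomal protein phosphorylated by S6 kinase, it was -0.53 ± 0.08 (SE, FDR 0.0021), for *rpl8* -0.44 ± 0.08 (FDR 0.0055) and for *rplp0*, the base of the stalk, -0.36 ± 0.07 (FDR 0.0172). Shorter genes had steeper terms, with r = 0.57 between the term and log2 length over the 75 genes other than the paralogs, a description across genes that are not independent.

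The term was shared by other abundant short transcripts. The 42 other genes above 1000 CPM per kb, which include *rpsa*, *rack1* and *fau*, had a median of -0.43. It was -0.54 for the 21 of the 42 under 1000 bases. It was -0.14 for the 698 genes between 100 and 1000 CPM per kb and 0.02 for the 10306 genes under 10 CPM per kb. Among translation genes, *rpsa* (-0.43), *rack1* (-0.43) and *fau* (-0.54), whose products are also in the ribosome but whose symbols the rule does not take, passed too. They are thus not separate from the 42. Of abundant genes outside the ribosome, *eef1a1* (-0.46), *eef2.1* (-0.34), *fth1.1* (-0.61) and *actg1* (-0.41) passed. *actb* (-0.14, FDR 0.66) and *gapdh* (-0.35, FDR 0.21) did not. The median term was 0.14 over 85 genes for ribosome biogenesis and -0.06 over 77 genes for mitochondrial ribosomal proteins. What made depth and level move together was not tested.

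**Figure D2:**
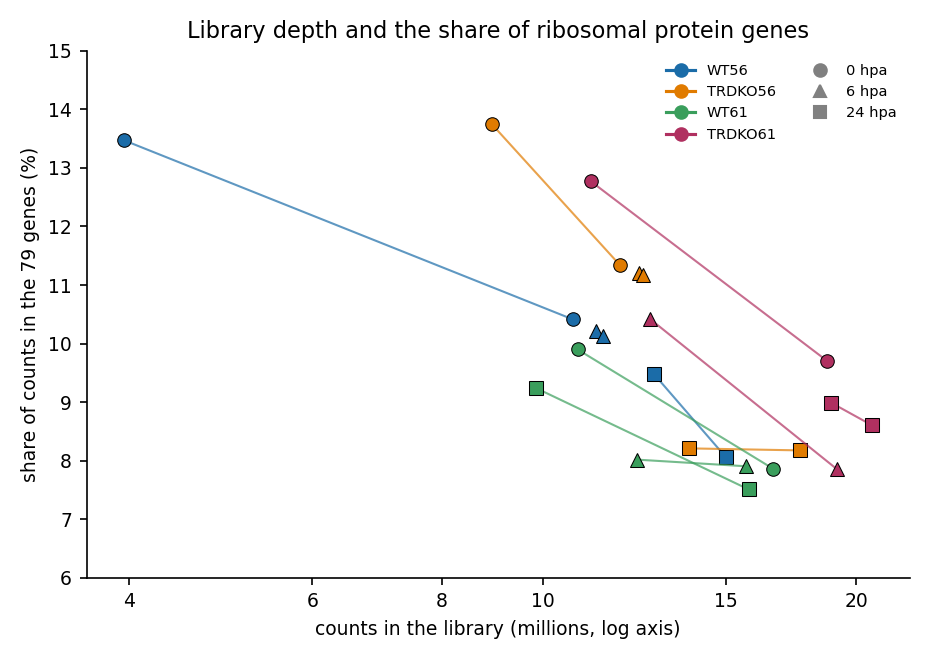
Share of counts of the 79 genes, in percent, against the library total (M counts) on a log axis. Each point is a library and a line joins both libraries of a condition. The lines fall from the shallower to the deeper library in all 12 conditions.

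Between conditions, depth differed too. Both libraries of WT56 at 0 hpa were shallower (10.7 M and 3.96 M) than those of WT56 at 24 hpa (12.8 M and 14.98 M), so comparisons of the set are given first from the 12 conditions alone and then with the depth term. Among libraries of similar depth, between 9.5 M and 14 M counts, the share at 0 hpa was 12.8% in TRDKO61, 11.3% in TRDKO56, 10.4% in WT56 and 9.90% in WT61. At 6 hpa it was 10.2 and 10.1% in WT56, 11.2 and 11.2% in TRDKO56, 10.4% in TRDKO61 and 8.02% in WT61. At 24 hpa it was 9.47% in WT56, 8.21% in TRDKO56 and 9.24% in WT61. Within this range the share at 24 hpa was below that at 0 hpa in WT56, TRDKO56 and WT61, by most in TRDKO56, with a single library at most points. Depth still differed inside the range. The 24 hpa library was the deeper in WT56 (12.8 M against 10.7 M) and in TRDKO56 (13.8 M against 11.8 M). In WT61 it was the shallower (9.84 M against 10.8 M). These falls are thus not free of depth in WT56 and TRDKO56.

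From 0 to 24 hpa nearly the whole set fell in stage 56 tails of both genotypes. In WT56, 76 of 79 genes fell, against 17.7% of all genes tested, with a median log2 FC of -0.79 against 0.05 for all genes. In TRDKO56, 76 of 79 fell, against 16.5% of all genes, with a median of -0.77. The same 76 genes fell in both, and *rpl22l1*, *rpl7l1* and *rps27l* passed in neither. Both comparisons have their own controls. The large and small subunits moved alike, with medians of -0.79 and -0.80 in WT56 and -0.77 and -0.77 in TRDKO56.

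The change was even but small per gene. In WT56 the quartiles of the log2 FC were -0.84 and -0.74, and only 2 passed an absolute log2 FC of 1, against 17.7% of all genes: *rpl3l* (-1.89 ± 0.40, FDR 0.0015) and *rpl34p* (-1.03 ± 0.33, FDR 0.0218). In TRDKO56 the same 2 passed, against 15.2% of all genes, *rpl3l* at -1.99 ± 0.33 (FDR 0.00036) and *rpl34p* at -1.12 ± 0.33 (FDR 0.0149). *rps28p9* followed in WT56 (-0.99 ± 0.26, FDR 0.0067), and *rpl38* in TRDKO56 (-0.96 ± 0.28, FDR 0.0148), a protein known from mouse for its part in translating Hox mRNAs.

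With depth as a term, the fall held in TRDKO56 and was mostly lost in WT56. In TRDKO56, 73 of 79 genes fell, against 12.3% of all genes, with a median of -0.43. In WT56, 4 of 79 fell, against 10.7% of all genes, with a median of -0.16. The 4 were *rpl3l* (-1.87), *rpl4* (-0.41), *rplp0* (-0.41) and *rpl3* (-0.38), of which *rpl3* and *rpl4* encode core proteins of the large subunit. For *rpl34p* the log2 FC in WT56 became -0.05, and for *rps28p9* it became -0.26. Leaving out replicate 2 of WT56 at 0 hpa, without a depth term, left 1 gene in WT56, *rpl3l* (set median -0.46, and -0.37 for *rpl34p*), and leaving out replicate 2 at 24 hpa left 3, *rpl3l*, *rpl4* and *rplp0*. In TRDKO56, leaving out replicate 1 at 0 hpa left *rpl3l* alone, leaving out replicate 1 at 24 hpa left 4 genes (*rpl3l*, *rpl12*, *rpl30* and *rps2*), and leaving out replicate 2 at 24 hpa left 2 (*rpl3l* and *rps2*).

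The libraries of *rps6* show the same ordering as the set. Its level in WT56 was 2487 and 3579.7 CPM at 0 hpa, 2516 and 2573 CPM at 6 hpa and 1929 and 1576 CPM at 24 hpa. In TRDKO56 it was 3339.8 and 2508 CPM, 2736 and 2736 CPM, and 1711 and 1688 CPM. The 24 hpa libraries lay below all others of their genotype at stage 56, and the 0 hpa libraries lay on both sides of those of 6 hpa in either genotype. The share of all genes that separate in this way is not given. Since *rps6* moved with the set (r = 0.997), this is no separate result.

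From 6 to 24 hpa, the interval in which the blastema forms, the depths of the stage 56 libraries were closer. Without the depth term part of the set fell in TRDKO56, and few genes fell in WT56. In WT56, 6 of 79 genes fell (7.59%), a share below the 13.8% of all genes, with a median log2 FC of -0.50. With the depth term 46 fell in WT56, against 13.4%, with a median of -0.35. In TRDKO56, 37 fell, against 15.5%, with a median of -0.63, and with the depth term 76 fell, against 14.5%, with a median of -0.45. Here the depth term thus lowered the size of the change and raised the number of genes that passed. That larger number is not independent of the choice of the term, as given above. Largest in WT56 were *rpl3l* (-1.95 ± 0.38, FDR 0.0011), *rpl3* (-0.66 ± 0.23, FDR 0.0389) and *rps3* (-0.64 ± 0.23, FDR 0.0441), a protein of the mRNA entry site. In TRDKO56 they were *rpl3l* (-2.34 ± 0.33, FDR 0.00011), *rps2* (-0.76 ± 0.24, FDR 0.0238) and *rpl12* (-0.75 ± 0.23, FDR 0.0206). Leaving out any single library of WT56 left *rpl3l* alone, and in TRDKO56 it left 5 genes (without replicate 1 at 6 hpa) or *rpl3l* alone.

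During wound healing, from 0 to 6 hpa, few or no genes of the set passed in any group. In WT56, 0 of 79 genes passed by edgeR, against 22% of all genes in either direction, with 0 at an unadjusted p under 0.05 and 0 by DESeq2. The median log2 FC was -0.27, 0.18 with the depth term and 0.03 without replicate 2 of 0 hpa. In TRDKO56, 0 of 79 passed by edgeR, against 24.2%, with 1 at an unadjusted p under 0.05 and 0 by DESeq2, and medians of -0.14 and 0.00. In WT61, 1 gene fell, against 3.91%, with a set median of -0.16 (-0.12 with the term), and in TRDKO61, 1 fell, against 11.3%, with a set median of -0.34 (-0.28 with the term). In both it was *rps27l*, described with the paralogs. With the depth term 5 genes fell in TRDKO61, against 11.1% of all genes: *rpl10a*, *rps27l*, *rpl3*, *rpl34p* and *rpl14*. In that fit 60 of the 79 had an unadjusted p under 0.05 by edgeR.

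At stage 61 the later intervals gave few calls. From 6 to 24 hpa, 1 gene rose in WT61, *rpl22l1*, against 2.22% of all genes, with a set median of 0.01 (-0.10 with the term). In TRDKO61, 0 of 79 passed by edgeR, against 11.9%, with 0 at an unadjusted p under 0.05 and 0 by DESeq2, and a median of -0.14, which turned to 0.06 with the term. From 0 to 24 hpa, 0 of 79 passed by edgeR in WT61, against 10.2%, with 1 at an unadjusted p under 0.05 and 0 by DESeq2, and a median of -0.16 (-0.21 with the term). In TRDKO61, 0 passed by edgeR, against 10.4%, with 27 at an unadjusted p under 0.05 and 1 by DESeq2, and a median of -0.48, which the depth term brought to -0.21. The TRDKO61 libraries of 0 hpa had 18.7 M and 11.1 M counts and those of 24 hpa 20.7 M and 18.9 M.

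The fall from 6 to 24 hpa was larger at stage 56 than at stage 61 in WT by its medians, but the difference did not pass for any gene. As an interaction, stage 61 minus stage 56, the log2 difference was above 0 in 79 of 79 genes, with a median of 0.50 (0.26 with the depth term). By edgeR 0 genes passed, against 2.11% of all genes, with 2 at an unadjusted p under 0.05 and 1 by DESeq2, and the lowest FDR was that of *rpl22l1* (0.085). The same interval compared between genotypes at stage 61, TRDKO minus WT, had a median of -0.15 (0.14 with the term), and 0 genes passed by edgeR, against 0.119% of all genes, with 2 at an unadjusted p under 0.05 and 0 by DESeq2.

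**Figure D3:**
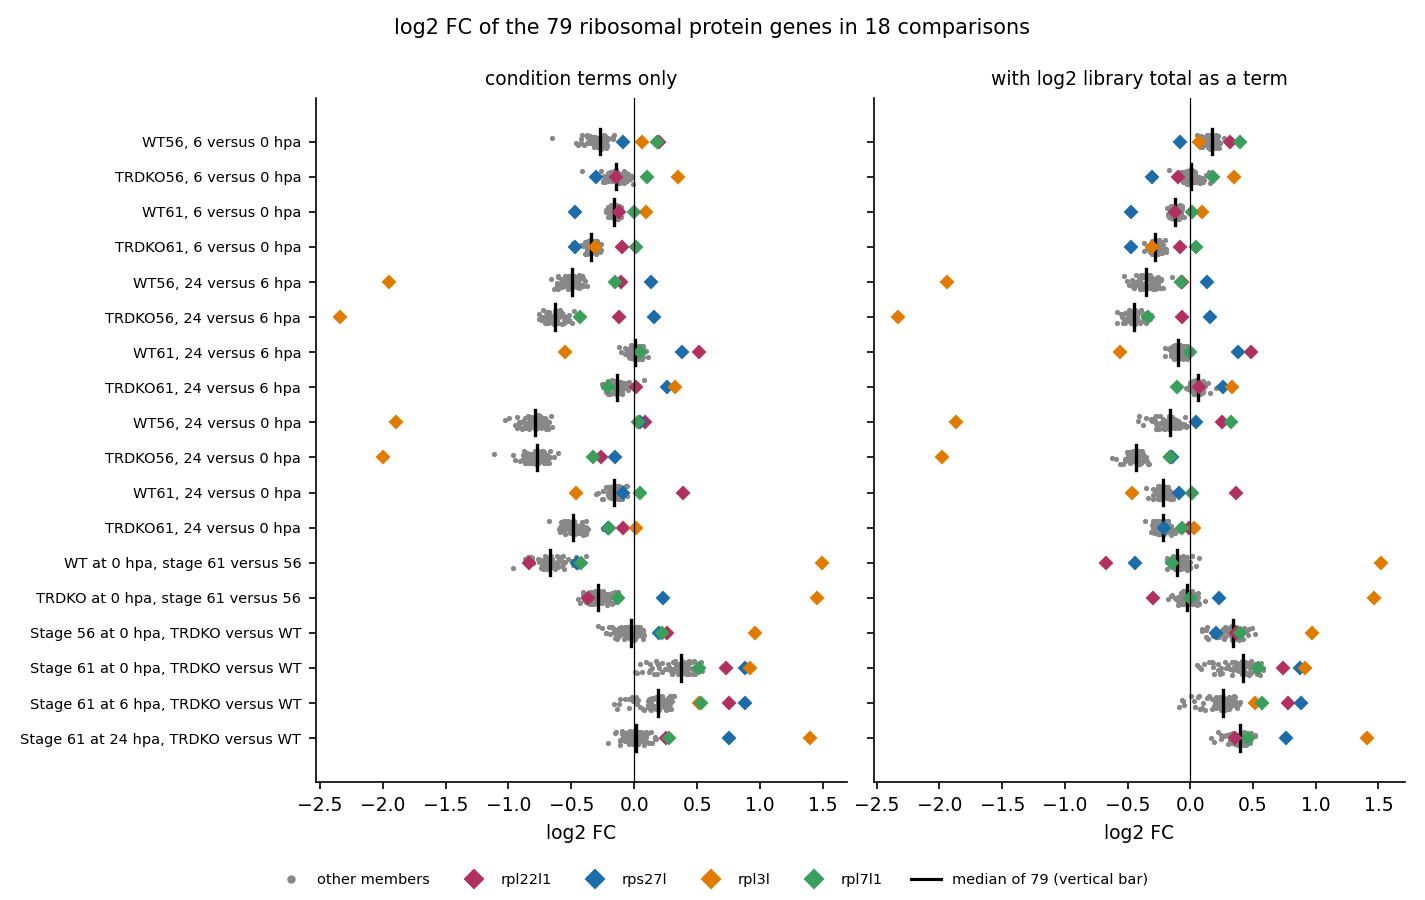
Log2 FC of each of the 79 genes in 18 comparisons, fitted with the 12 conditions alone (left) and with the log2 library total as a further term (right). Points are genes, a bar marks the median and colours mark the 4 paralogs. In WT56 at 24 versus 0 hpa the median moves from -0.79 to -0.16, in TRDKO56 from -0.77 to -0.43, and *rpl3l* stays near -1.9 or lower in both.

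Between stages at 0 hpa, the set was lower at the climax in WT. There 35 of 79 genes fell, against 11.6% of all genes, 1 rose, against 10.7%, and the median log2 FC was -0.67. The gene that rose was *rpl3l*. Among those that fell were *rpl34p* (-0.97 ± 0.33, FDR 0.0451), *rps28p9* (-0.87) and *rps12* (-0.85). With the depth term 1 gene fell, *rpl22l1*, against 7.9% of all genes, 1 rose, *rpl3l*, and the median was -0.11. Without replicate 2 of WT56 at 0 hpa the median was -0.37 and 2 genes passed, *rpl22l1* and *rpl3l*, and without replicate 2 of WT61 at 0 hpa 3 passed, these and *rps27l*. In TRDKO the same step of stage gave 1 gene that rose, again *rpl3l*, against 7.93% of all genes, with a median of -0.29 (-0.03 with the depth term). There 2 genes had an unadjusted p under 0.05 and 2 passed by DESeq2. The 0 hpa libraries are shared with the comparisons of time above.

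Between genotypes at stage 56, compared at 0 hpa alone, no gene of the set passed and the sign of the median moved with the fit. By edgeR 0 of 79 genes passed, against 3.29% of all genes, with 1 at an unadjusted p under 0.05 and 0 by DESeq2, and the median was -0.03. When depth was a term the median was 0.34, with 61 genes at an unadjusted p under 0.05 and 0 past the FDR, and with 1 library left out it ran from -0.29 to 0.28, the highest without replicate 2 of WT56. At stage 61 and 0 hpa all 79 genes had a log2 FC above 0 in TRDKO versus WT, with a median of 0.37, and the 4 paralogs rose, against 12.5% of all genes. With the depth term 58 genes rose, against 13.4%, with a median of 0.42. Calls with this term, here and at the later times, are not independent of its choice, which rested on the spread of these same genes. Beside the paralogs these included *rpl10a* (0.58, FDR 0.0028), *rpl14* (0.55, FDR 0.0028) and *rpl31* (0.58, FDR 0.0036), and they did not include *rplp0*, *rpl8*, *rpl3* or *rpl4*. Depth was similar in these groups (18.7 M and 11.1 M in TRDKO61, 10.8 M and 16.6 M in WT61), and the depth term narrowed the error of a gene such as *rpl10a* from 0.22 to 0.12.

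At 6 hpa, 3 genes rose in TRDKO61 over WT61, against 12% of all genes, all of them paralogs, with a set median of 0.19. With the depth term 9 rose, against 12.1%, with a median of 0.26. At 24 hpa 2 rose, against 6.48%, again paralogs, with a set median of 0.01, and with the depth term 24 rose, against 4.74%, with a median of 0.40. At this time the TRDKO61 libraries were deeper (20.7 M and 18.9 M) than those of WT61 (9.84 M and 15.8 M). The paralogs are the genes of the set that passed in these comparisons whether or not depth was a term, with the exceptions given below.

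Of the paralogs, *rpl3l* (chr9:16962916-16969181, plus strand) had the largest changes and the lowest level, with 21 to 1177 counts per library. In WT56 it was at 8.14 and 6.49 CPM at 0 hpa, at 7.66 and 8.04 CPM at 6 hpa and at 2.80 and 1.32 CPM at 24 hpa. In TRDKO56 it was at 13.6 and 15.6 CPM, 13.5 and 23.8 CPM, and 4.47 and 2.81 CPM. The 24 hpa libraries lay below all others of their genotype, and TRDKO56 lay above WT56 at each time, by a narrow gap at 24 hpa. In TRDKO61 it was at 32.1 and 48.6 CPM, 33.1 and 31.7 CPM, and 48.9 and 32.1 CPM, and in WT61 at 19.4 and 23 CPM, 24.2 and 21 CPM, and 13.7 and 17.3 CPM. At stage 61 all 6 TRDKO61 libraries lay above all 6 of WT61, and all 12 stood above WT56. Here and for the paralogs below, the share of all genes whose libraries separate in this way is not given.

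The falls of *rpl3l* at 24 hpa in stage 56 tails, given above, passed with the depth term (FDR 0.0092 in WT56 and 0.0019 in TRDKO56 versus 0 hpa) and without any single library. At stage 61 the log2 FC at 24 versus 0 hpa was -0.46 ± 0.30 (FDR 0.371) in WT61 and 0.01 ± 0.28 (FDR 0.99) in TRDKO61, and the difference between stages in WT from 6 to 24 hpa was 1.39 ± 0.48 (FDR 0.124). From stage 56 to 61 it rose by 1.495 ± 0.34 (FDR 0.0044) in WT and by 1.45 ± 0.30 (FDR 0.0034) in TRDKO. TRDKO61 exceeded WT61 by 0.92 ± 0.29 (FDR 0.0286) at 0 hpa and by 1.39 ± 0.29 (FDR 0.0053) at 24 hpa, and at 6 hpa the value was 0.52 ± 0.29 (FDR 0.213). The call at 0 hpa held only without replicate 1 of TRDKO61, and that at 24 hpa was lost without replicate 1 of TRDKO61 or of WT61. Its partner *rpl3* (chr4:120831778-120837676, minus strand) had a log2 FC of -0.56 ± 0.23 (FDR 0.0935) between stages in WT.

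Since *rpl3l* is known from mammals as a gene of striated muscle, the muscle markers are given beside it. Of 21 muscle markers tested, 20 fell at 24 versus 0 hpa in WT56, against 17.7% of all genes (median -2.16, and -1.70 with the depth term). In TRDKO56 20 fell, against 16.5% (median -1.76, and -1.59). Between stages at 0 hpa the median of the markers was -0.92 in WT. Of the 21, 1 rose, against 10.7% of all genes, and 5 fell, against 11.6%. With the depth term 1 fall was left, against 7.9% of all genes (median -0.53), and without replicate 2 of WT56 the median was -0.64. In TRDKO 10 markers fell, against 8.8% of all genes (median -1.13), and 8 with the depth term, against 7.53%. In TRDKO61 versus WT61 at 0 hpa 8 fell, against 11.9% (median -1.02). The sign of these medians between stages was opposite to that of *rpl3l*. The part of muscle content in the values of *rpl3l* was not tested.

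*rps27l* (chr3:91510162-91519242, plus strand), whose human counterpart is a target of p53, differed between genotypes at stage 61. In TRDKO61 it was at 66.4 and 75.4 CPM at 0 hpa, 52.4 and 49.8 CPM at 6 hpa and 59.3 and 63.1 CPM at 24 hpa. In WT61 it was at 36.6 and 40.6 CPM, 30.9 and 24.6 CPM, and 34.8 and 37.8 CPM. All 6 libraries of TRDKO61 lay above all 6 of WT61. At stage 56 WT56 (45.5 to 58.6 CPM) and TRDKO56 (48.6 to 61.3 CPM) overlapped. TRDKO61 exceeded WT61 by 0.88 ± 0.13 (FDR 0.00013) at 0 hpa, 0.88 ± 0.13 (FDR 0.00014) at 6 hpa and 0.76 ± 0.13 (FDR 0.00096) at 24 hpa, and each passed with the depth term and without any single library. From stage 56 to 61 it fell in WT (-0.45 ± 0.13, FDR 0.0184), a value that stayed at -0.45 with the depth term (FDR 0.0691) and kept its call only without replicate 2 of WT61, and in TRDKO the value was 0.23 ± 0.13 (FDR 0.239). From 0 to 6 hpa it fell in WT61 (-0.47 ± 0.13, FDR 0.0277) and in TRDKO61 (-0.47 ± 0.13, FDR 0.0116), calls that in WT61 held only without replicate 1 of 6 hpa and in TRDKO61 were lost without replicate 2 of 0 or of 6 hpa. For its partner *rps27* the genotype test at stage 61 and 0 hpa gave no call (0.19 ± 0.26, FDR 0.628).

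*rpl22l1* (chr5:111724716-111730512, plus strand), a paralog of *rpl22* that in mouse is repressed by the Rpl22 protein, was lowest in WT61. It was at 89.1 and 91.3 CPM at 0 hpa, 84.8 and 80.6 CPM at 6 hpa and 109 and 127 CPM at 24 hpa in WT61, and at 137 and 162 CPM, 147 and 131 CPM, and 132 and 149 CPM in TRDKO61. All TRDKO61 libraries lay above all WT61 libraries, by a narrow gap at 24 hpa. WT56 ranged from 153 to 187 CPM and TRDKO56 from 152 to 208 CPM. TRDKO61 exceeded WT61 by 0.73 ± 0.13 (FDR 0.00094) at 0 hpa and 0.75 ± 0.13 (FDR 0.00072) at 6 hpa, both without any single library too, and at 24 hpa the value was 0.25 ± 0.13 (FDR 0.237). From stage 56 to 61 it fell in WT (-0.84 ± 0.14, FDR 0.00033, and -0.67 with the depth term, FDR 0.0059), and in TRDKO the value was -0.37 ± 0.13 (FDR 0.0645). Its rise from 6 to 24 hpa in WT61 (0.51 ± 0.13, FDR 0.0422) was lost without any 1 of the 4 libraries. *rpl22* itself fell between stages in WT by a like amount (-0.75 ± 0.24, FDR 0.0337), which the depth term brought to -0.14 (FDR 0.555).

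*rpl7l1* (on Sca19, bases 12297 to 22241, plus strand), the paralog of *rpl7*, was at 155 and 131 CPM at 0 hpa, 138 and 147 CPM at 6 hpa and 137 and 158 CPM at 24 hpa in WT61. In TRDKO61 it was at 179 and 229 CPM, 227 and 184 CPM, and 173 and 183 CPM. Here too all TRDKO61 libraries lay above all WT61 libraries, while WT56 (176 to 220.1 CPM) and TRDKO56 (172 to 261 CPM) overlapped with TRDKO61. The difference between genotypes at stage 61 was 0.52 ± 0.16 (FDR 0.0254) at 0 hpa, 0.53 ± 0.16 (FDR 0.0231) at 6 hpa and 0.28 ± 0.16 (FDR 0.281) at 24 hpa. The call at 0 hpa was lost without replicate 2 of either group, and that at 6 hpa without replicate 1 of TRDKO61 or any library of WT61. *rpl7* had 0.40 ± 0.24 (FDR 0.223) at 0 hpa, and 0.45 (FDR 0.011) with the depth term.

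**Figure D4:**
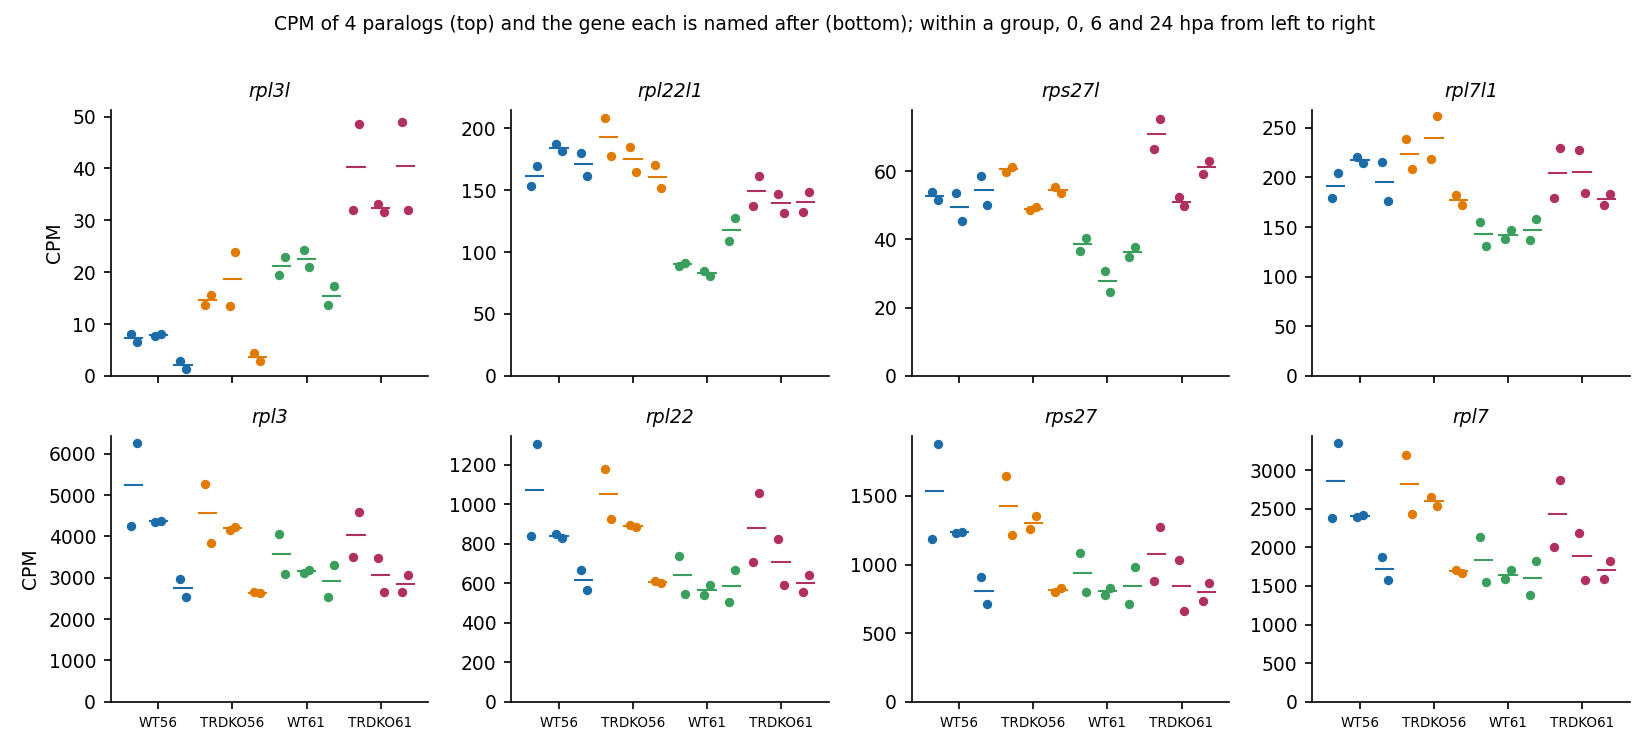
CPM in each library of *rpl3l*, *rpl22l1*, *rps27l* and *rpl7l1* (top) and of their partners *rpl3*, *rpl22*, *rps27* and *rpl7* (bottom), by group and hpa, with short bars for the means. At stage 61 the 6 TRDKO61 libraries lie above the 6 WT61 libraries for all 4 paralogs, while the groups overlap for the partners. The share of all genes that separate in this way is not given, and 12.5% of all genes rose between these genotypes at 0 hpa.

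Early after amputation, genes that build the ribosome rose in every group. Of 85 ribosome biogenesis genes tested, which encode the factors that transcribe, cut and assemble ribosomal RNA, 52 rose from 0 to 6 hpa in WT61, against 5.62% of all genes (median 0.69), 65 in TRDKO61, against 13.1% (median 0.75), 72 in TRDKO56, against 13.3% (median 0.93), and 70 in WT56, against 11.9% (median 0.98). These medians were, with the depth term, 0.68, 0.74, 0.91 and 0.87, and without replicate 2 of WT56 at 0 hpa 55 rose in WT56 (median 0.89). In WT56 the genes included *noc3l* (1.44 ± 0.16), *nip7* (1.34) and *utp3* (1.32), which act in subunit assembly and rRNA processing, and *polr1e* (1.25), a subunit of RNA polymerase I. In the same interval the median of the ribosomal protein genes lay between -0.34 and -0.14, and between -0.28 and 0.18 with the depth term.

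From 0 to 24 hpa 62 biogenesis genes rose in WT56, against 20.2% of all genes, and 2 fell, against 17.7% (median 0.78). Among those that rose were *ftsj3* (1.40) and *ebna1bp2* (1.34). In TRDKO56 44 rose, against 19.5%, and 4 fell, against 16.5% (median 0.49). Given depth as a term 41 rose in WT56, against 11.9%, and 30 in TRDKO56, against 14.4%, and without replicate 2 of WT56 at 0 hpa 45 rose in WT56. The set of ribosomal protein genes was at -0.79 and -0.77 in these comparisons, or at -0.16 and -0.43 with the term. From 6 to 24 hpa 12 biogenesis genes fell in WT56, which is near the 13.8% of all genes, and 2 rose, against 15% (median -0.23). In TRDKO56 45 fell, against 15.5% of all genes, and 2 rose, against 17.5% (median -0.50).

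At stage 61 and 0 hpa, 70 biogenesis genes rose in TRDKO versus WT, against 12.5% of all genes (median 0.83), including *utp3* (1.73 ± 0.16) and *mphosph10* (1.49 ± 0.15), and 73 rose at 6 hpa, against 12% (median 0.90), and 59 at 24 hpa, against 6.48% (median 0.74). When depth was a term 71, 76 and 42 rose, against 13.4, 12.1 and 4.74% of all genes. From stage 56 to 61 in WT, 40 fell, against 11.6% of all genes (median -0.52), among them *utp3* (-1.06) and *dkc1* (-0.96), the pseudouridine synthase. There 42 fell with the depth term, against 7.9% of all genes, and without replicate 2 of WT56 the median was -0.61. In TRDKO 2 rose, below the 7.93% of all genes (median 0.06, and -0.02 with the term). The depth term of these genes had the opposite sign to that of the ribosomal protein genes (median 0.14), as given above.

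Of 77 genes for mitochondrial ribosomal proteins, 52 fell from stage 56 to 61 in WT, against 11.6% of all genes (median -0.57). With the depth term 32 were left, against 7.9%, and without replicate 2 of WT56 the median was -0.53. In TRDKO 7 fell, near the 8.8% of all genes (median -0.27), and 2 with the term, against 7.53%. In TRDKO61 versus WT61 at 0 hpa 35 rose, against 12.5% (median 0.43), and 41 with the term, against 13.4%. From 0 to 24 hpa 9 rose and 2 fell in WT56 (median 0.06), and 3 rose and 14 fell in TRDKO56 (median -0.14). With the depth term 7 falls were left in TRDKO56, against 12.3% of all genes. Of all genes, 20.2% rose and 17.7% fell in WT56, and 19.5% rose and 16.5% fell in TRDKO56.

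Other translation genes were mixed. Of all genes, 20.2% rose and 17.7% fell at 24 versus 0 hpa in WT56, and 11.9% rose and 10.7% fell with the depth term. Of 12 elongation genes, 3 rose and 7 fell at 24 versus 0 hpa in WT56 (median -0.60), and 2 rose and 2 fell with the depth term (median -0.19). Among those up was *etf1* (1.17 ± 0.19), which is counted with this list although it encodes a release factor and not an elongation factor. *eef1g* (-0.74 ± 0.20) was among those down. Of 39 initiation genes 12 rose and 7 fell, the falls near the share of all genes, and 7 rose and 1 fell with the term. Among 26 genes of mTOR and translational control, 5 rose and 4 fell in WT56, near the 20.2% and 17.7% of all genes, and 2 rose and 1 fell with the term. *rps6kb1*, which encodes the kinase of ribosomal protein S6, rose in WT56 and TRDKO56 (1.01 ± 0.15 and 0.92 ± 0.15), and *tsc1*, a brake on mTOR, fell in both (-1.01 ± 0.19 and -0.84 ± 0.18). These are single genes of a list whose calls in WT56 lay near the share of all genes, so they give it no direction. The activity of mTOR was not tested. Of 9 genes of the p53 response to ribosomal stress, 2 rose and 4 fell in WT56, the rises near the share of all genes. In TRDKO56 2 rose and 1 fell, where 19.5% of all genes rose and 16.5% fell. *mdm2* was up in both (0.45 ± 0.13 and 0.43 ± 0.13).

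Leukocyte markers and DNA replication genes moved in the same interval. Of 25 leukocyte markers 21 rose in WT56 (median 1.67) and 17 in TRDKO56, and of 32 DNA replication genes 31 rose in WT56 (median 1.31) and 25 in TRDKO56 (median 0.91). Of all genes, 20.2% rose in WT56 and 19.5% in TRDKO56. When depth was a term the counts of these lists were 21, 15, 24 and 17, against 11.9% of all genes in WT56 and 14.4% in TRDKO56. The part of these levels in the level of the ribosomal protein genes was not tested.

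**Figure D5:**
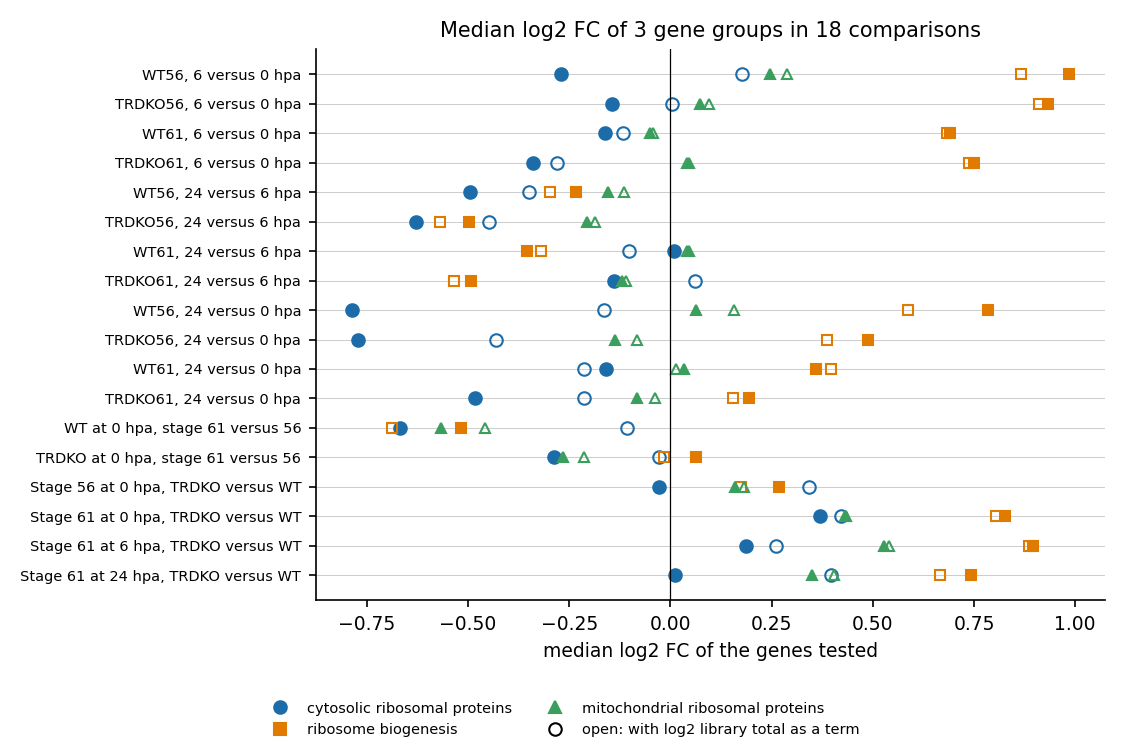
Median log2 FC of the 79 ribosomal protein genes, 85 ribosome biogenesis genes and 77 mitochondrial ribosomal protein genes in each comparison, with filled points for the 12 conditions alone and open points with the depth term. At 6 versus 0 hpa the biogenesis medians lie between 0.69 and 0.98 while those of the ribosomal protein genes lie between -0.34 and -0.14.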

How the data were processed

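The deposited values are whole-number counts per gene that the authors made from paired-end reads of poly-A-selected RNA, without normalization. The submitters' processing notes name cutadapt 3.2, STAR 2.7.7a and featureCounts of Subread 2.0.1, while the paper's methods name other versions of STAR and Subread. The gene positions are those of UCB_Xtro_10.0. Whether marked duplicates or reads with several matches were counted, and the strand option, are not given in the sources used here. The records of *otogl2* and *neb* were rejoined from 3 lines each.

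Of 26531 genes, 16743 passed filterByExpr. All 24 libraries, with TMM scaling, entered a quasi-likelihood model with 12 condition coefficients (edgeR 4.0.16 under R 4.3.3, using statmod 1.5.0 and limma 3.58.1). Two-sided p-values were adjusted by Benjamini and Hochberg over all genes, and FDR under 0.05 was called. The common biological coefficient of variation was 16.2%, which with 2 libraries per condition limits the precision. Totals were 3956148 to 20731438 counts, and DESeq2 1.42.0 was run as an alternative. The SE is the size of a log2 FC divided by the root of its F. Scripts were tested on simulated data for WT56 at 24 versus 6 hpa. There 3 of 66 genes changed 1.5-fold were called, 27 of 66 changed 2-fold and 51 of 66 changed 4-fold. A gene that did not pass may therefore still have changed by such an amount.

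The members and lists were chosen with earlier results of these data known, and lists were written from general knowledge (of 90 biogenesis symbols 85 were tested). Genes were named by lowest FDR or largest change among those called, with the paralogs, the p names, *rpl8*, *rplp0* and *rps6* named throughout. The depth term, the fit without the smallest library and the thinning of counts were chosen after seeing the data. Other alternatives were other scalings, no filter, fits to fewer libraries, a replicate block and leaving out each library. For a comparison of times within a group, the fit to fewer libraries took both stages of that genotype at the times compared. For the other comparisons it took only the conditions compared.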

Additional observations from a re-analysis of the deposited data

Results flagged for a closer look

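At 6 versus 0 hpa, *rpl22l1* had a log2 FC of 0.191 in WT56, where both libraries of 6 hpa (187 and 181 CPM) lay above both of 0 hpa (153 and 169 CPM), and of -0.126 in WT61, where both (84.8 and 80.6 CPM) lay below (89.1 and 91.3 CPM). It stands out because in WT the libraries of 6 hpa lay above those of 0 hpa at stage 56 and below them at stage 61. The libraries are not paired, and the share of all genes that separate in this way is not given. In TRDKO56 the libraries of 6 hpa (185 and 164 CPM) overlapped with those of 0 hpa (208 and 178 CPM). In TRDKO61 they overlapped too (147 and 131 CPM at 6 hpa, 137 and 162 CPM at 0 hpa). Neither change passed (FDR 0.338 and 0.588, edgeR), and the difference between them was not tested.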

How the results depend on the processing

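The fall of the set at 24 versus 0 hpa in stage 56 tails kept its direction under every alternative run, and its size and number of calls did not. With the depth term the medians were -0.16 in WT56 (4 genes called) and -0.43 in TRDKO56, 0.18 at 6 versus 0 hpa in WT56, -0.35 (46 called) and -0.45 (76 called) at 24 versus 6 hpa in WT56 and TRDKO56, -0.11 (2 called) for stage in WT, 0.40 for genotype at stage 61 and 24 hpa, 0.14 for the difference of TRDKO and WT and 0.26 for that of the stages in WT, with 58, 9 and 24 called for genotype at stage 61, 5 at 6 versus 0 hpa in TRDKO61 and 1 at 24 versus 0 hpa in WT61. Without replicate 2 of WT56 at 0 hpa it gave -0.21 (4 called), 0.0825 at 6 versus 0 hpa and -0.17 (2 called) for stage. Scaling by library totals moved the median of all genes by up to 0.37 (WT56, 24 versus 0 hpa), relative to which the set was at -0.81 in WT56 and in TRDKO56. It gave -0.44 (23 down and 2 up, 25 called) in WT56 and -0.62 (76 called) in TRDKO56, -0.19 (1 down and 1 up, 2 called) and -0.45 (19 called) at 24 versus 6 hpa in WT56 and TRDKO56, 0.28 for the difference of stages in WT, 10 called for stage in WT, 9 for genotype at stage 61 and 0 hpa, and, in WT61, 1 at 24 versus 0 hpa and 0 at 6 versus 0 hpa.

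For TRDKO56 at 24 versus 6 hpa the median was -0.66 with DESeq2 (68 called), with RLE factors and in the fit to fewer libraries (56 called), -0.67 with upper quartile scaling and -0.65 after thinning. DESeq2 also called 74 for stage in WT, 23 at 24 versus 6 hpa in WT56, 2 for stage in TRDKO, 1 at 24 versus 0 hpa in TRDKO61 and 1 for the difference of stages in WT. At 24 versus 6 hpa in WT56, 3 were called after thinning, 2 without the filter and 19 in the fit to fewer libraries. The call at 24 versus 6 hpa in WT61 was 0 with RLE, without the filter and in the fit to fewer libraries. Fits to fewer libraries also called 23 for stage in WT, 1 for genotype at stage 56, 1 at stage 61 and 6 hpa, and 0 at 6 versus 0 hpa in WT61 and TRDKO61. Upper quartile scaling called 1 at 6 versus 0 hpa in TRDKO56 and 2 for stage in TRDKO. With 1 library left out, calls ran from 1 to 76 at 24 versus 0 hpa in WT56 and TRDKO56 (medians -0.96 to -0.56 in TRDKO56), 1 to 1 and 1 to 5 at 24 versus 6 hpa in WT56 (medians -0.63 to -0.37) and TRDKO56, 2 to 65 for stage in WT, 2 to 4 and 1 to 2 for genotype at stage 61 at 0 and 24 hpa (medians -0.18 to 0.25 at 24 hpa and -0.0749 to 0.41 at 6 hpa), 0 to 1 at 6 versus 0 hpa in WT56, WT61 and TRDKO61 (medians -0.33 to 0.0727 in TRDKO56 and -0.37 to 0.0815 in WT61), and 0 to 0 at 24 versus 6 hpa in WT61 (medians -0.23 to 0.20). Medians ran from -0.71 to -0.20 at 24 versus 0 hpa in TRDKO61, -0.37 to 0.10 for TRDKO minus WT and 0.27 to 0.70 for the stages in WT. The cause was not tested.

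Replicate numbers did not pair the samples, since deviations of same-numbered libraries correlated at -0.21 to 0.17 over 66 pairs of conditions, 7 of them over 0.1. With a replicate block, 14 genes were called for stage in WT, 0 at 24 versus 6 hpa in WT61, 4 and 27 at 24 versus 6 hpa in WT56 and TRDKO56, and 76 and 76 at 24 versus 0 hpa.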
